A study of Mus musculus with 21 samples.

Results

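Tex15 knockout (KO) male germ cells of the mouse were compared between postnatal day 2.5 (D2.5) and embryonic day 18.5 (E18.5), with 3 KO D2.5 and 3 KO E18.5 RNA-seq libraries chosen by their genotype and age labels from the 21 libraries of the series. The KO D2.5 cells came from Tex15-/- pups and the KO E18.5 cells from Tex15-/- embryos. Heterozygous (HT, Tex15+/-) cells, with 3 libraries at D2.5 and 3 at E18.5, showed whether the change between the ages differed with genotype. All 4 groups came from crosses of Tex15+/- parents on a mixed strain background. All were sorted from testes by the fluorescence of Oct4-GFP, a reporter driven by Oct4 (Pou5f1) regulatory sequence that is active in germ cells. The labels name the libraries of a group biological triplicates and give the postnatal age as both day 2 and day 2.5. They give neither the structure of the mutant allele nor whether cells of several animals were pooled. Each age has its own deposited tables, so age cannot be told apart from any difference in how the libraries of the ages were prepared or counted.

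Tex15 encodes a large germ cell protein that in the mouse acts with the nuclear Piwi protein MIWI2 (Piwil4) in the silencing of transposons in fetal male germ cells. These cells, called prospermatogonia, rest in the cell cycle late in gestation and regain DNA methylation, which Piwi-interacting RNAs (piRNAs) direct to transposons. Around birth they enter the cell cycle again and give rise to spermatogonial stem cells, which depend on the growth factor GDNF, and to spermatogonia that differentiate.

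Tex15 RNA stayed far below the heterozygous level at both ages. The gene was at 24.6, 24.1 and 16.8 CPM (normalised gene counts on the counts-per-million scale) in KO D2.5 cells, against 2.87, 3.30 and 2.92 CPM in KO E18.5 cells. In HT cells it was at 1804, 2213 and 1884 CPM at D2.5, against 753, 823 and 825 CPM at E18.5. Every KO library lay below every HT library, and the 2 KO ages did not overlap. The residual RNA of the KO cells was higher at D2.5 by 2.84 on the log2 scale (SE 0.43, edgeR quasi-likelihood test with Benjamini-Hochberg adjustment over all genes tested, adjusted p = 0.000715), and HT cells changed by 1.30. With a correction for the GC content of transcripts the KO value was 1.37. Throughout, log2 fold changes are KO D2.5 over KO E18.5 unless HT is named, and a gene passed at an adjusted p under 0.05.

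Gene counts summed to 6063632 to 6900680 in the KO D2.5 libraries, against 8522271 to 9301965 in the KO E18.5 libraries. The KO D2.5 libraries had counts for 16216 to 17169 genes, against 21887 to 22136 genes in the KO E18.5 libraries. Correlations of log2 CPM were 0.889 to 0.918 among KO D2.5 libraries and 0.967 to 0.982 among KO E18.5 libraries. On the second principal component of the 12 KO and HT libraries (8.09% of the variance), KO D2.5 replicate 3 lay at -137, against 2.58 and 3.74 for the other KO D2.5 libraries. Counts of gene lists that change without that library are given with it left out. The germ cell markers Ddx4, Dazl, Mael and Piwil2 were measured in every KO library, and the summed level of the 13 listed germ cell markers was 5590 to 7979 CPM in KO D2.5 cells, against 3588 to 4387 CPM in KO E18.5 cells. Dazl alone was at 2726 to 4761 CPM of that sum, against 489 to 627 CPM. Of the 12 germ cell markers tested 4 rose and 5 fell (median -0.91). In sorted bulk RNA, fewer cells of a type and less RNA per cell cannot be told apart.

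Between the ages 8839 of 17115 genes tested differed in KO cells, which is 51.6%, with 3855 genes higher at D2.5 (22.5%) and 4984 lower (29.1%). The lower genes include 609 with no count in any KO D2.5 library, whose direction was fixed by the count filter. The median of all genes tested was -0.36, and it moved to -0.92 when libraries were scaled by their gene totals alone, with 2438 genes higher and 6929 lower, so that the share of calls that were higher was 26.03% instead of 43.6%. Without KO D2.5 replicate 3, 10856 of 18263 genes passed (59.4%). Leaving out a KO E18.5 library gave 6914 calls without replicate 1, 6515 without replicate 2 and 6509 without replicate 3. Levels of the 3 KO D2.5 libraries all lay above those of KO E18.5 for 4374 genes (25.6%) and all below for 6759 genes (39.5%). The change followed the base composition of the transcripts. Among the 2091 tested genes of lowest GC content (29.6 to 42.0%) the median was 1.02, and among the 2090 of highest GC content (57.0 to 72.5%) it was -1.97. HT cells gave medians of 0.96 and -1.98 for the same genes. Over 16714 genes Spearman's rho between GC content and the log2 fold change was -0.44 in KO cells and -0.44 in HT cells. With offsets that remove this trend, 7136 genes passed (41.7%), 3157 higher and 3979 lower. Of these calls 5903 had the same direction in both fits, and 41 the opposite one. A further 2895 calls of the uncorrected fit did not pass with that correction. Such losses are named below for genes described there, and corrected values that differ from the uncorrected ones by over 1.5 times are given beside the genes.

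**Figure D1:**
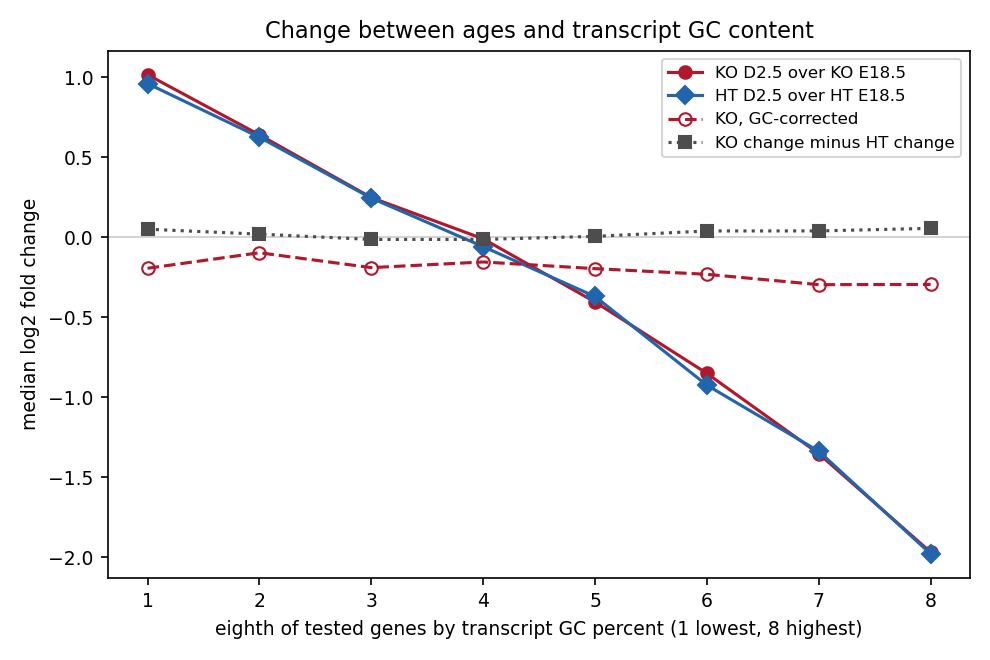
Median log2 fold change, D2.5 over E18.5 (y axis), of 8 strata of tested genes ordered by the GC content of their transcripts (x axis, 1 lowest and 8 highest) in KO cells, in HT cells, in KO cells after the GC correction, and for the KO change minus the HT change. The KO and HT medians are lower in each stratum than in the one before it, with 1.02 in KO cells and 0.96 in HT cells in the stratum of lowest GC content, and the corrected medians lie between -0.30 and -0.10.

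The largest rises at D2.5 among the genes named by rule were of Rhox8, Spry4 and Mki67. Rhox8, an X-linked homeobox gene known for its expression in Sertoli cells, was at 55.7, 152 and 69.1 CPM in KO D2.5 cells, against 1.44, 1.28 and 0.471 CPM in KO E18.5 cells (6.42, SE 0.56, edgeR adjusted p = 4.17e-05). Spry4, a feedback inhibitor of receptor tyrosine kinase signalling, was at 75.6, 67.9 and 155 CPM, against 1.44, 2.11 and 1.41 CPM in KO E18.5 cells (5.89, SE 0.44). In neither gene did the groups overlap, which the rule that named the largest changes required. Prss37, a serine protease homologue of the testis, rose by 5.76, the pleckstrin homology-like protein gene Phlda1 by 5.31, and the immediate early transcription factor gene Egr3 by 5.14. Hs3st3b1, a heparan sulfate sulfotransferase, rose by 5.11, the calcium-binding copine gene Cpne1 by 4.95, and the bitter taste receptor gene Tas2r108 by 4.72. Kcnj15, a potassium channel gene, and Nr5a2, a nuclear receptor gene also called LRH-1, rose by 4.58 and 4.48, and Sh3bgrl rose by 4.48. These calls held in every alternative fit run. After the GC correction Phlda1 was at 6.93, Tas2r108 at 3.67, Nr5a2 at 3.74 and Sh3bgrl at 2.93. Mki67, Id4, Gfra1 and Ccnd2 complete the 15 largest rises and are described with their groups.

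The 15 largest falls were all of genes with no count in any KO D2.5 library. Cd22, which encodes a B cell lectin receptor, had 0 counts in the 3 KO D2.5 libraries, against 51.4, 77.8 and 77.8 CPM in KO E18.5 cells. With a floor of 3 counts per library it was at least 120-fold lower at D2.5. HT cells had 0, 0 and 1.45 CPM of Cd22 at D2.5, against a mean of 67.5 CPM at E18.5. By the same floor Gucy2f, a retinal guanylate cyclase gene, was at least 65.9-fold lower, the ring finger gene Rnf112 at least 43.3-fold lower and the calcium channel gene Cacna1i at least 40.9-fold lower. The neuropeptide gene Vip, the lipocalin gene Lcn2 and the myelin glycoprotein gene Mag were at least 36.9-, 33.2- and 31.3-fold lower. Vip, Lcn2 and Mag were also at 0 in every HT D2.5 library. Gucy2f was at 0, 4.37 and 4.90 CPM in HT D2.5 cells, and Cacna1i at 0, 2.11 and 2.90 CPM. The floor allows for counting error only and not for such a spread between libraries. Slc34a2, Tmprss11d, Ceacam19, Alpk2, Oprk1, Cyp2f2 and Cblc were at least 27.9- to 35.8-fold lower. In all, 609 tested genes had no count in the KO D2.5 libraries, with means of 1.16 to 69.0 CPM in KO E18.5 cells. They passed the count filter through the E18.5 libraries alone, so their direction was fixed by the filter, and all 609 were called lower. No tested gene was at 0 in all 3 KO E18.5 libraries.

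**Figure D2:**
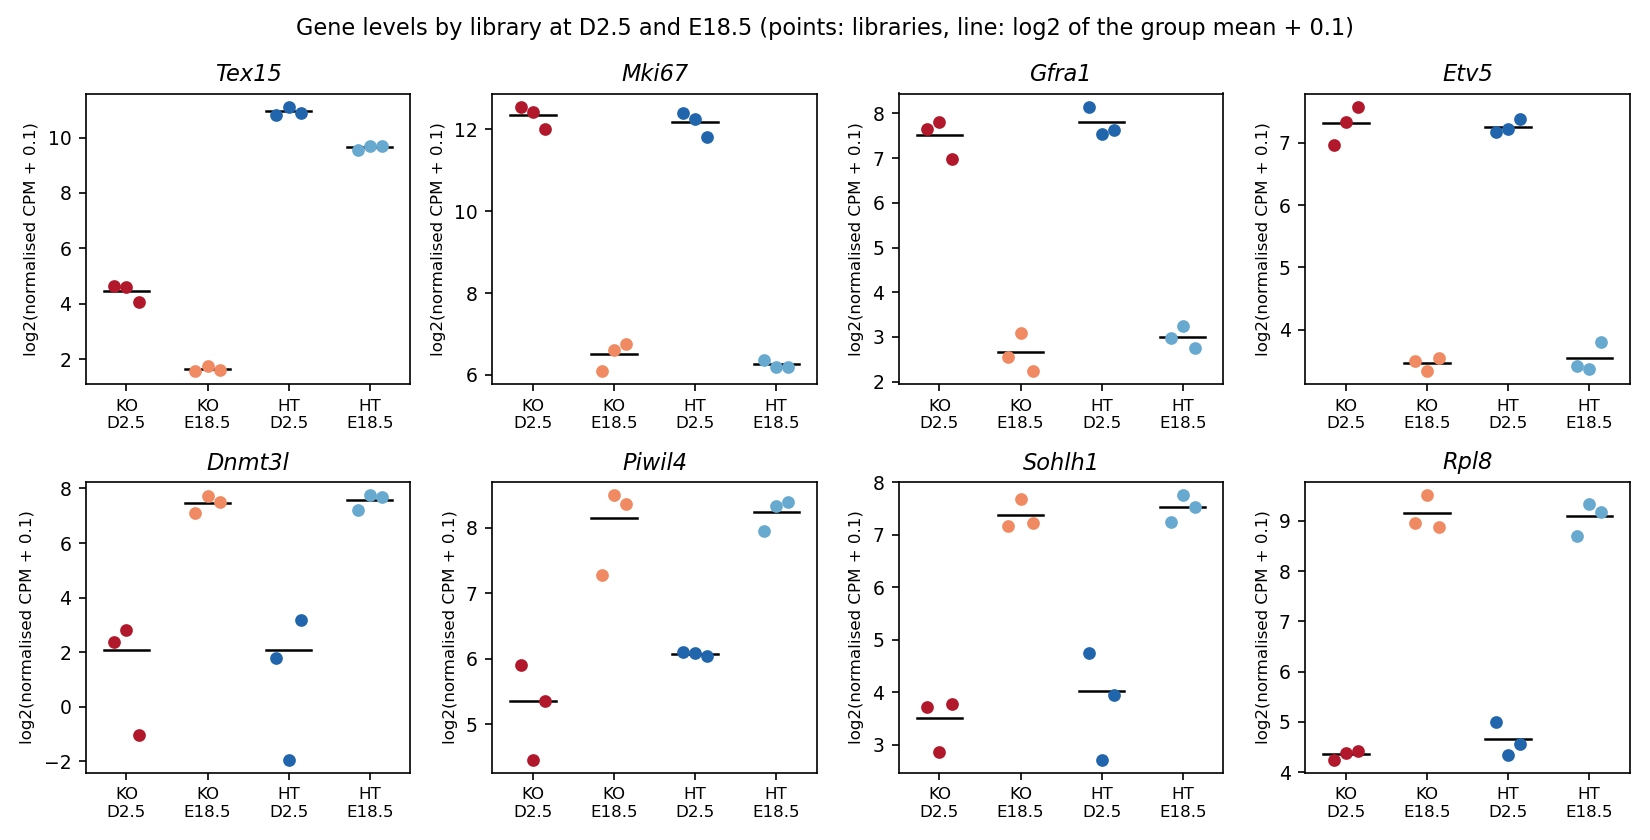
Log2 of normalised CPM plus a pseudocount of 0.1 (y axis, a separate range for each gene) of 8 genes in each KO D2.5, KO E18.5, HT D2.5 and HT E18.5 library, with 1 point per library and a line at log2 of the group mean plus 0.1. Mki67, Gfra1 and Etv5 lie higher in all 3 KO D2.5 libraries than in any KO E18.5 library, Dnmt3l, Piwil4, Sohlh1 and Rpl8 lie lower, and Tex15 is far lower in KO than in HT libraries at both ages.

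Genes of the cell cycle rose as a group at D2.5. All 28 listed genes of DNA replication and division were tested, 20 rose, none fell, and their median log2 fold change was 1.51. Mki67, which encodes the proliferation antigen Ki-67, was at 6021, 5504 and 4154 CPM in KO D2.5 cells, against 68.3, 97.3 and 107 CPM in KO E18.5 cells (5.84, SE 0.25, edgeR adjusted p = 8.64e-06). HT cells changed by 5.91 in the same gene. Rrm2, a subunit of ribonucleotide reductase, was at 84.6, 82.7 and 92.2 CPM, against 3.74, 4.77 and 6.41 CPM in KO E18.5 cells (4.12, SE 0.29). Ccna2, the cyclin of S phase and mitosis, was at 507, 430 and 349 CPM, against 30.5, 47.4 and 44.4 CPM in KO E18.5 cells (3.39, SE 0.23). Top2a, the DNA topoisomerase of dividing cells, was at 1864, 1466 and 1575 CPM, against 138, 196 and 215 CPM in KO E18.5 cells (3.16, SE 0.20). The 2 ages did not overlap in any of these 4 genes, which for Mki67 the rule for the largest changes required. The replication clamp gene Pcna rose by 2.56 and the mitotic cyclin gene Ccnb1 by 2.36. With the GC correction 22 of the 28 rose and none fell, Top2a was at 2.43 and Ccnb1 at 1.72. Scaled by gene totals alone, 15 rose and 3 fell, with a median of 0.94.

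The promoters of 3 of these genes are shown for motifs of cell cycle promoters, the CCAAT box (CCAAT), which is in each of them, and the cell cycle gene homology region (TTTGAA), which is in those of Mki67 and Top2a. Each sequence holds the 250 bases before the annotated start, in the direction of the gene, from RefSeq on build GRCm38.p6, and capitals mark CCAAT and TTTGAA or their reverse complements. Mki67 is on the minus strand at chr7:135716380-135716629, Rrm2 on the plus strand at chr12:24708004-24708253, and Top2a on the minus strand at chr11:99024190-99024439.
Mki67: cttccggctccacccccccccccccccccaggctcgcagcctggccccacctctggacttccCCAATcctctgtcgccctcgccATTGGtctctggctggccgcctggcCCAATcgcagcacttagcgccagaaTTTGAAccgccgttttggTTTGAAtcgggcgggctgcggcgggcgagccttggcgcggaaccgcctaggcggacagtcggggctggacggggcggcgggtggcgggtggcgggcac
Rrm2: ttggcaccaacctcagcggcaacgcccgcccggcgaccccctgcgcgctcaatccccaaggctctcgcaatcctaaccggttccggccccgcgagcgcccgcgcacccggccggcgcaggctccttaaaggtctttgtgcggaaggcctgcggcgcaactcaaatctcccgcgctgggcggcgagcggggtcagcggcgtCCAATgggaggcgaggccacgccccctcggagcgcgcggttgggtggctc
Top2a: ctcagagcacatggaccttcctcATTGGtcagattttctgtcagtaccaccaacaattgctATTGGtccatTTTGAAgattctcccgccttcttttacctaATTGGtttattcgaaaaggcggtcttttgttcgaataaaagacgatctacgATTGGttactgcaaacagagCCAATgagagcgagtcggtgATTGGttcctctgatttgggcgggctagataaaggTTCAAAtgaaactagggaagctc
The Mki67 window held 3 CCAAT and 2 TTTGAA matches, the Top2a window 6 and 2, and the Rrm2 window 1 and 0, counted on both strands. CCAAT was found in 19 of the 23 cell cycle genes with a window (82.6%) and in 39.4% of the 13071 tested genes with a window. A gene was counted where any of its windows held a match. TTTGAA was found in 7 of the 23 (30.4%) and in 13.9% of those tested genes. The matches of the motifs do not overlap in these windows, and a match is a description of the letters only.

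Genes that restrain the cycle also changed, and of 13 tested inhibitors 8 rose and 1 fell, with a median of 0.99. The GC correction left 4 higher and 1 lower, scaled by gene totals 5 rose and 3 fell, and without KO D2.5 replicate 3, 8 rose and 2 fell. Wee1, the kinase that holds back mitotic entry, rose by 3.26, and Cdkn1a, the inhibitor p21, rose by 2.59. Cdkn1a was at 21.2, 28.3 and 10.6 CPM in KO D2.5 cells, against 3.45, 3.39 and 3.11 CPM in KO E18.5 cells, and its value was 3.44 with the GC correction. The fall of Cdkn2a (-2.17) did not pass with the GC correction, with the replicate block or without KO E18.5 replicate 1 or 2. Cdkn1b, the inhibitor p27, did not pass (-1.55). Of 17 tested targets of p53, 8 rose and 6 fell (median -0.55). After the GC correction 6 rose and 2 fell and the median was 0.082, scaled by gene totals 5 rose and 7 fell, and without KO D2.5 replicate 3, 8 rose and 8 fell. The death receptor gene Eda2r was at 29.1, 15.4 and 26.8 CPM in KO D2.5 cells, against 1.63, 0.642 and 1.04 CPM in KO E18.5 cells (4.41, SE 0.56, edgeR adjusted p = 0.000277), with no overlap. The proapoptotic genes Pmaip1 rose (3.25) and Bbc3 fell (-3.72), and the call of Bbc3 did not hold with the GC correction or the replicate block. With that correction Eda2r was at 3.36, Pmaip1 at 2.35 and Bbc3 at -1.45.

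Replication-dependent histone genes went the other way from the cell cycle list. Of 28 listed genes 13 passed the count filter, 9 fell and none rose, with a median of -3.37, and 6 of the 28 had no count in the KO D2.5 libraries. Their summed level was 39.0, 25.3 and 34.5 CPM in KO D2.5 cells, against 306.5, 330.0 and 226.9 CPM in KO E18.5 cells. The ages did not overlap. The linker histone gene Hist1h1e was at 1.69, 0.964 and 6.07 CPM, against 64.9, 59.2 and 47.1 CPM in KO E18.5 cells (-4.29, SE 0.59, edgeR adjusted p = 0.000447). In HT cells the list gave 33.2, 28.2 and 36.3 CPM at D2.5, against 215.4, 260.6 and 192.7 CPM at E18.5. With the GC correction 8 of the 13 tested genes fell and none rose in KO cells, with a median of -2.48.

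Genes of spermatogonial stem cells and of the GDNF pathway were largely higher at D2.5. Of 21 tested genes 12 rose and 5 fell, with a median of 1.31 (1.02 without KO D2.5 replicate 3, with the same counts). Scaled by gene totals, 9 rose and 6 fell (median 0.72). Gfra1, the GDNF co-receptor, was at 201, 223 and 125 CPM in KO D2.5 cells, against 5.75, 8.35 and 4.62 CPM in KO E18.5 cells (4.87, SE 0.33, edgeR adjusted p = 1.34e-05). Ret, the signalling partner of Gfra1, rose by 3.74. Id4, an inhibitor of helix-loop-helix factors and a stem cell marker, was at 73.0, 71.9 and 84.7 CPM, against 1.34, 2.02 and 1.51 CPM in KO E18.5 cells (5.55, SE 0.31). The ages did not overlap in Gfra1 and Id4, which the rule for the largest changes required. Etv5, a transcription factor of GDNF and FGF signalling, was at 125, 161 and 191 CPM, against 11.2, 10 and 11.6 CPM in KO E18.5 cells (3.86, SE 0.24). Lhx1, a further transcription factor gene of that pathway, was at 39.4, 39.0 and 60.7 CPM, against 3.64, 2.94 and 2.54 CPM (3.92, SE 0.37). Zbtb16, which encodes the stem cell factor PLZF, rose by 3.05. The 5 that fell were Sohlh1, Thy1, Plvap, Tspan8 and Uchl1. Sohlh1, a transcription factor of spermatogonia, was at 13.1, 7.13 and 13.7 CPM, against 144, 207 and 149 CPM in KO E18.5 cells (-3.88, SE 0.30). Thy1, a surface protein used to enrich stem cells, was at 3.38, 2.12 and 5.28 CPM, against 48.4, 44.2 and 33.9 CPM (-3.55, SE 0.42). Plvap (-3.34), also a gene of endothelium, did not pass with the GC correction (-1.49). With that correction Id4 was at 4.71, Lhx1 at 4.60, Zbtb16 at 3.77, Sohlh1 at -2.37 and Thy1 at -2.44, and Tspan8 and Uchl1, at -2.29 each without it, were at -3.26 and -1.004.

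Genes of differentiating spermatogonia moved in both directions, and 8 of 15 tested rose while 3 fell (median 0.92). Scaled by gene totals, 7 rose and 4 fell (median 0.35). Ccnd2, a cyclin of the exit from rest, was at 867, 783 and 1012 CPM in KO D2.5 cells, against 53.7, 30.8 and 29.5 CPM in KO E18.5 cells (4.55, SE 0.27, edgeR adjusted p = 1.09e-05). Ccnd1 was at 206, 210 and 215 CPM, against 25.4, 9.72 and 13.5 CPM (3.70, SE 0.34). Dazl, the germ cell translation regulator, was at 4761, 2726 and 3826 CPM, against 627, 489 and 524 CPM (2.79, SE 0.22). The 3 genes were each higher in every KO D2.5 library, which for Ccnd2 the rule for the largest changes required. Stra8, the gene induced by retinoic acid at the start of differentiation, rose by 1.96, and Kit, the receptor of differentiating spermatogonia, did not pass (0.20). Upp1, Rarg and Crabp1 fell. Upp1 had no count in any KO D2.5 library, so its direction was fixed by the count filter. Rarg, the retinoic acid receptor of spermatogonia, was at 0.188, 0.579 and 1.76 CPM, against 11.9, 14.4 and 15.8 CPM in KO E18.5 cells (-4.04, SE 0.76). Crabp1, a retinoic acid-binding protein gene, was at 2.25, 8.68 and 10.96 CPM, against 66.2, 57.2 and 59.9 CPM (-3.06, SE 0.49). Of 19 genes of retinoic acid metabolism and reception 2 rose and 7 fell. The 2 were Aldh1a1 (2.40), which makes retinoic acid, and Cyp26b1 (1.73), which degrades it. Among the 7 was Rxrg, which had no count in any KO D2.5 library, so that its direction was also fixed by the filter. The median of that list was -0.45. With the GC correction it was 0.03, with 3 genes higher and 4 lower, and without KO D2.5 replicate 3 it was -0.017, with 2 higher and 9 lower. The corrected values were 1.24 for Dazl, -2.44 for Rarg, -1.70 for Crabp1 and 2.98 for Cyp26b1.

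**Figure D3:**
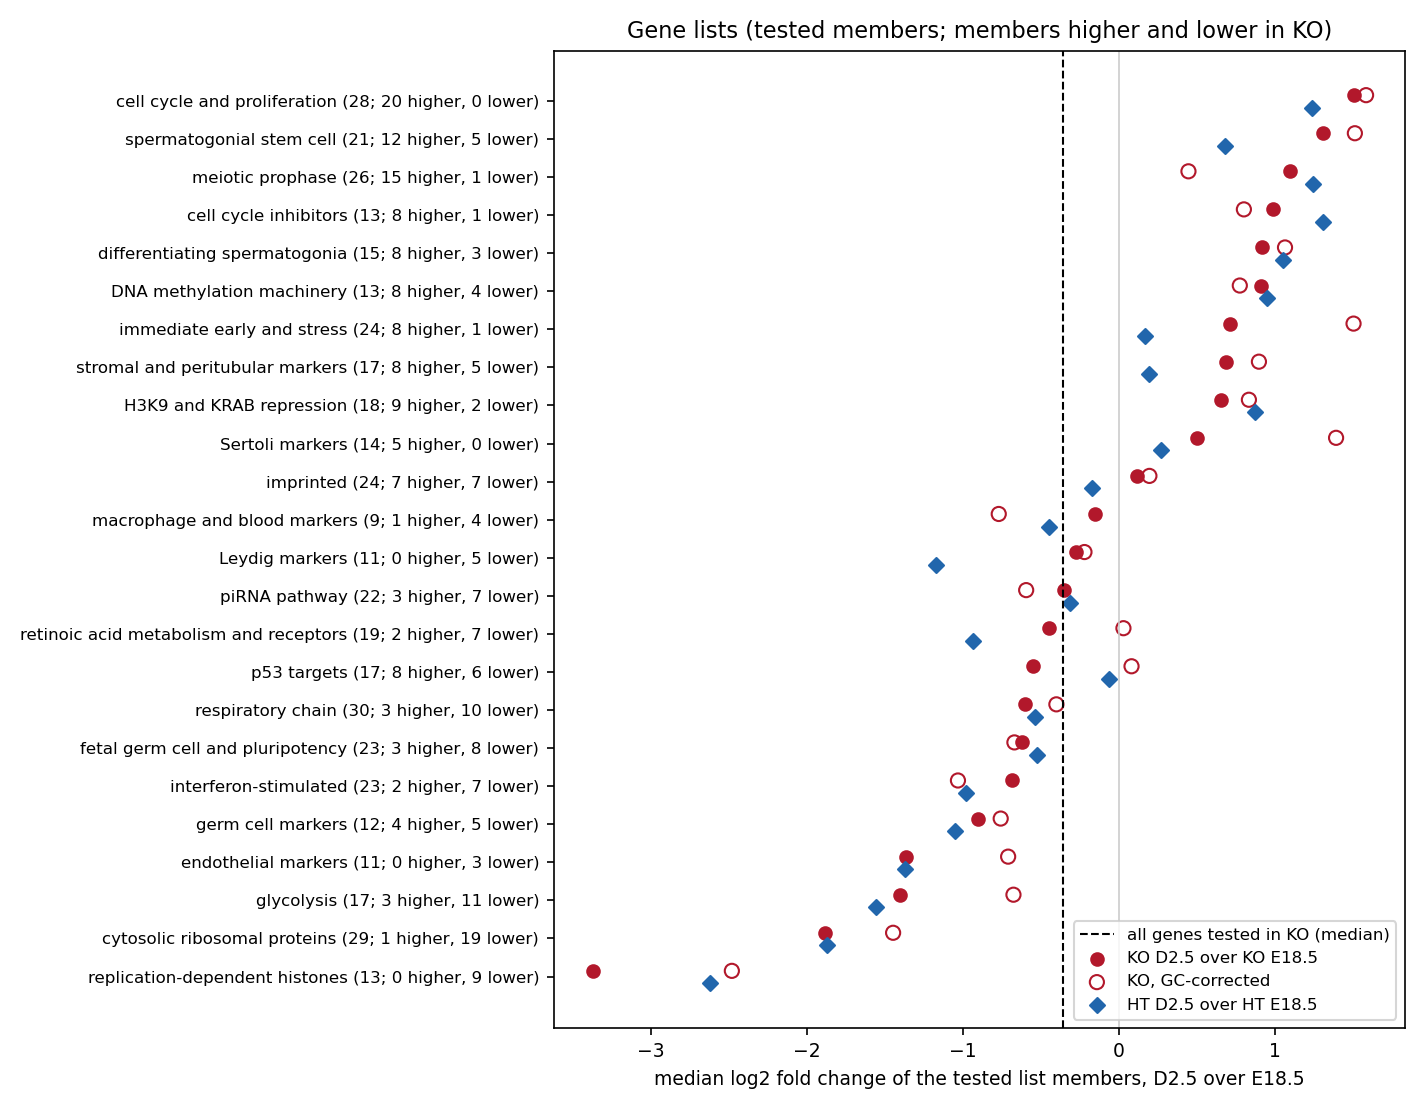
Median log2 fold change, D2.5 over E18.5 (x axis), of the tested members of 24 gene lists (rows, with the number tested and the numbers higher and lower in KO cells), as a filled circle for KO cells, an open circle for KO cells after the GC correction and a diamond for HT cells. The KO median of the cell cycle list lies at 1.51 and that of the replication-dependent histones at -3.37, while the median of all genes tested in KO cells, drawn as a dashed line, is -0.36.

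Genes of DNA methylation changed in both directions. Of 13 tested, 8 rose and 4 fell (median 0.91), and without KO D2.5 replicate 3, 8 rose and 5 fell. Scaled by gene totals, 6 rose and 5 fell (median 0.33). Dnmt3l, the cofactor of de novo methylation in prospermatogonia, was at 5.07, 6.94 and 0.391 CPM in KO D2.5 cells, against 136, 210 and 183 CPM in KO E18.5 cells (-5.40, SE 0.61, edgeR adjusted p = 0.000151). Dnmt3a, a de novo methyltransferase, was at 277, 311 and 300 CPM, against 1097, 1182 and 1161 CPM (-1.95, SE 0.13). Kdm1b, a demethylase of histone H3 lysine 4, was at 310, 328 and 222 CPM, against 824, 1302 and 1233 CPM (-1.96, SE 0.22). The ages did not overlap in these 3 genes, and Tet3 fell as well (-1.41). Among the genes that rose, Uhrf1, which brings maintenance methylation to replicated DNA, was at 148, 109 and 128 CPM, against 18.5, 12.6 and 12.2 CPM in KO E18.5 cells (3.15, SE 0.26). Hells, a chromatin remodeller needed for DNA methylation, was at 1398, 845 and 925 CPM, against 135, 107 and 109 CPM (3.17, SE 0.23). HT cells changed by -5.55 in Dnmt3l and by 2.77 in Uhrf1, and neither difference between genotypes passed. The GC-corrected values were -4.74 for Dnmt3l, -2.58 for Kdm1b, -0.73 for Tet3, 3.87 for Uhrf1 and 1.72 for Hells.

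In the piRNA pathway 3 of 22 tested genes rose and 7 fell, a share lower near the 29.1% of all genes tested. The median of -0.35 was also close to that of all genes tested. Piwil4, the nuclear Piwi protein that TEX15 works with, was at 60.0, 22.0 and 40.9 CPM in KO D2.5 cells, against 155, 362 and 332 CPM in KO E18.5 cells (-2.79, SE 0.42, edgeR adjusted p = 0.000708). Its partner Tdrd9, a helicase, was at 155, 127 and 129 CPM, against 687, 1075 and 963 CPM (-2.73, SE 0.20). Piwil2, the cytoplasmic Piwi protein, was at 178, 288 and 227 CPM, against 781, 919 and 739 CPM (-1.81, SE 0.20). All 3 genes were lower in every KO D2.5 library. The 3 rises, of Asz1 (1.88), Ddx4 (0.70) and Gtsf1 (0.62), were not called with the GC correction, and Asz1 was then at 0.27 and Ddx4 at -0.071. Gtsf1 also lost its call when any 1 KO E18.5 library was left out. Of the 7 falls that of Piwil1 (-1.44) was not called with the GC correction (-0.91). With that correction 1 gene of the list rose and 10 fell, and without KO D2.5 replicate 3, 5 rose and 7 fell.

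Of 18 tested genes of histone H3 lysine 9 methylation and KRAB repression 9 rose and 2 fell (median 0.66, or 0.088 with 7 higher and 4 lower scaled by gene totals). Ehmt2, the methyltransferase G9a, was at 35.8, 38.6 and 24.7 CPM in KO D2.5 cells, against 373, 517 and 465 CPM in KO E18.5 cells (-3.77, SE 0.23, edgeR adjusted p = 1.09e-05). The other gene that fell was Trim28, the KRAB corepressor (-0.70), which passed in the opposite direction with the GC correction (1.02). It did not pass without KO E18.5 replicate 3. Periphilin (Pphln1) and Fam208a, of the HUSH silencing complex, rose by 3.36 and 3.01. Atrx, a remodeller of heterochromatin, was at 2395, 1843 and 1540 CPM, against 262, 211 and 211 CPM (3.08, SE 0.20). The methyltransferase gene Setdb1 did not pass (0.28). Corrected for GC content, Ehmt2 was at -1.88, Pphln1 at 2.70, Fam208a at 1.71 and Atrx at 1.84.

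Of 23 tested genes of fetal germ cells and pluripotency 3 rose and 8 fell (median -0.62, and -0.25 without KO D2.5 replicate 3, with the same counts). The GC correction gave 5 higher and 8 lower, with Pou5f1 at -2.12, Utf1 at -1.81 and Sall4 at 1.59. Pou5f1, the source of the sorting reporter's regulatory sequence, was at 1.69, 2.70 and 10.2 CPM in KO D2.5 cells, against 43.5, 72.9 and 53.2 CPM in KO E18.5 cells (-3.54, SE 0.61, edgeR adjusted p = 0.00151). Utf1, a chromatin factor of undifferentiated cells, was at 24.8, 36.6 and 10.6 CPM, against 194, 498 and 469 CPM (-4.01, SE 0.50). Neither gene overlapped between the ages. Dppa3 fell (-2.50), but the call was lost with limma-voom library weights and when KO D2.5 replicate 1, KO E18.5 replicate 2 or KO E18.5 replicate 3 was left out. Nanos2, the male fetal germ cell translation factor, did not pass (-1.34). The rises, of the pluripotency factor gene Sox2 (1.74), the zinc finger gene Sall4 (0.85) and the RNA-binding protein gene Lin28a (0.83), were not called when libraries were scaled by gene totals alone or without KO E18.5 replicate 3. Sox2 and Lin28a were not called without KO D2.5 replicate 1 or KO E18.5 replicate 2 either.

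Genes of meiotic prophase were partly higher at D2.5, and of 26 tested 15 rose and 1 fell (median 1.10), and without KO D2.5 replicate 3, 15 rose and 3 fell. Sycp1, of the synaptonemal complex, was at 1896, 981 and 1234 CPM in KO D2.5 cells, against 80.1, 98.8 and 112 CPM in KO E18.5 cells (3.82, SE 0.27, edgeR adjusted p = 1.62e-05). Smc1b, the meiotic cohesin gene, was at 3166, 2117 and 1932 CPM, against 214, 161 and 180 CPM (3.70, SE 0.23), and Sycp3 rose by 2.98. Rec8, the other meiotic cohesin gene of the list that changed, was at 6.76, 3.28 and 3.33 CPM, against 23.6, 31.0 and 22.3 CPM (-2.52, SE 0.45). None of these 4 genes overlapped between the ages. Spo11, which makes meiotic DNA breaks, and Prdm9, which places them, did not pass (-0.88 and -0.78). With the GC correction 9 genes of the list rose and 3 fell, and the median was 0.45. Sycp1 was then at 2.03, Smc1b at 2.49, Sycp3 at 1.18 and Rec8 at -1.25. Scaled by gene totals, 12 rose and 4 fell.

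Of 29 tested cytosolic ribosomal protein genes, which encode parts of the translation machinery, 19 fell and 1 rose (median -1.88). The summed level of the 30 listed genes was 1817 to 2403 CPM in KO D2.5 cells, against 6781 to 8365 CPM in KO E18.5 cells. Rpl8 was at 18.95, 20.8 and 21.3 CPM, against 501, 730 and 472 CPM in KO E18.5 cells (-4.80, SE 0.23, edgeR adjusted p = 8.64e-06), and Rplp1 fell by 4.89. The counts of these genes can share reads with their many pseudogenes, so single values are uncertain. Rpl5, the gene that rose (1.94), did not pass with the GC correction or when any 1 KO E18.5 library was left out. Of 17 tested glycolysis genes 11 fell and 3 rose (median -1.40). After the GC correction 8 fell and 4 rose, with a median of -0.67. Aldoa, the aldolase of glycolysis, was at 19.9, 24.5 and 22.3 CPM, against 223, 124 and 95.3 CPM (-2.73, SE 0.33). Of 30 respiratory chain genes 10 fell and 3 rose (median -0.60), a share lower near the 29.1% of all genes tested. When KO D2.5 replicate 3 was left out 12 fell and 5 rose (-0.27), and scaled by gene totals 19 fell and 1 rose. Cox4i1, a subunit of cytochrome oxidase, was at 20.1, 24.3 and 31.7 CPM, against 304, 379 and 287 CPM (-3.67, SE 0.23). Corrected for GC content, Rpl8 was at -3.26, Rplp1 at -3.53, Rpl5 at 1.13, Aldoa at -1.44 and Cox4i1 at -2.18.

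Immediate early genes, which answer growth factors and also cell handling, were higher for 8 of 24 tested and lower for 1 (median 0.72). Egr1 was at 728, 595 and 630 CPM in KO D2.5 cells, against 95.3, 74.8 and 43.5 CPM in KO E18.5 cells (3.19, SE 0.28, edgeR adjusted p = 4.13e-05), and Egr2 rose by 4.20. Scaled by gene totals alone, 5 genes of that list rose and 8 fell, with the GC correction 13 rose and 2 fell (Egr1 at 4.55), and without KO D2.5 replicate 3, 10 rose and 2 fell. Of 24 imprinted genes 7 rose and 7 fell (median 0.12, or -0.44 scaled by gene totals), and without KO D2.5 replicate 3, 10 rose and 7 fell. The share lower was near that of all genes tested (29.1%, with 22.5% higher). Plagl1, a paternally expressed zinc finger gene, was at 295, 630 and 526 CPM, against 29.1, 32.9 and 32.7 CPM (3.94, SE 0.29), and the paternally expressed gene Mest rose by 3.30. Rtl1, a retrotransposon-derived paternally expressed gene, was at 1.13, 2.89 and 0.783 CPM, against 15.3, 19.5 and 17.1 CPM (-3.42, SE 0.60, or -2.55 with the GC correction).

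Some markers of other testis cells moved with age as well, where of all genes tested 22.5% rose and 29.1% fell. The summed level of 16 Sertoli cell markers was 116.5, 270.0 and 368.5 CPM in KO D2.5 cells, against 111.6, 109.6 and 92.5 CPM in KO E18.5 cells, and in HT cells 145.2, 148.6 and 90.1 CPM at D2.5, against 103.2, 113.0 and 123.0 CPM at E18.5. Among 14 tested, 5 rose and none fell, among them Wt1 at 18.01, 14.3 and 75.7 CPM, against 5.46, 4.77 and 3.01 CPM in KO E18.5 cells (3.02, SE 0.68), while Sox9 (-0.10) and Amh (-1.10) did not pass. Wt1 was at 1.97 without KO D2.5 replicate 3. The median of the Sertoli list was 0.50. Without KO D2.5 replicate 3 it was 0.26, with 5 higher and 1 lower, and scaled by gene totals it was -0.035, with 3 higher and 2 lower. KO D2.5 replicate 1 lay close to the KO E18.5 libraries in this sum and the others lay above them. Stromal and peritubular markers summed to 429.7, 989.6 and 663.1 CPM in KO D2.5 cells, against 354.2 to 424.8 CPM in KO E18.5 cells, with 8 of 17 higher and 5 lower. Leydig cell markers summed to 33.4, 100.5 and 88.7 CPM, against 99.8 to 118.6 CPM, with 5 of 11 lower and Hsd3b6 and Insl3 at 0 in all KO D2.5 libraries. Endothelial markers summed to 136.2 to 167.5 CPM, against 300.4 to 333.9 CPM, with 3 of 11 lower, none higher and Cldn5 at 0 in all KO D2.5 libraries. That share lower is near the share of all genes tested. Macrophage and blood markers summed to 91.6 to 186.3 CPM, against 117.6 to 148.8 CPM, with 1 of 9 tested higher and 4 lower. C1qa and Tyrobp were at 0 in all KO D2.5 libraries and the 4 globin genes at 0 in the KO libraries of both ages. The part of these cells in the changes of Rhox8 and of other genes was not tested. Without KO D2.5 replicate 3, 8 stromal markers were higher and 4 lower, 1 Leydig marker was higher and 5 lower, 4 endothelial markers were lower, and 2 macrophage and blood markers were higher and 4 lower. Scaled by gene totals, 5 stromal markers were higher and 5 lower and 9 endothelial markers were lower.

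Repeat RNA was counted in separate tables, by repeat name and by repeat family. Counts of repeat names made up 58.6 to 68.5% of all gene and name counts in KO D2.5 cells, against 56.0 to 60.2% in KO E18.5 cells. The family totals, 919879490 to 1254023075 counts in KO D2.5 and 805340492 to 1118719468 in KO E18.5 libraries, exceeded the sum of all gene and name counts of the same libraries. A read can therefore stand in them more than once, and a family value is read only against the same family in other libraries. Of 52 families tested 38 passed (73.1%), 37 higher (71.2%) and 1 lower (1.92%), with a median of 1.06 when libraries were scaled as for the genes. Scaled by the family totals, 10 passed (19.2%), 1 higher and 9 lower (17.3%), with a median of -0.09, so 97.4% of the calls were higher in the first scaling and 10% in the second. The LINE family L1, which holds autonomous retrotransposons, was at 1.18 (SE 0.18) in the first scaling and did not pass in the second (0.0059, adjusted p = 0.896). It took 94.9 to 96.6% of family counts in KO D2.5 cells, against 94.5 to 95.6% in KO E18.5 cells. The endogenous retrovirus family ERVK was at 0.80 in the first scaling and at -0.37 in the second. ERV1 did not pass in the first (-0.004) and was at -1.18 in the second. The SINE families Alu, B2 and B4, short elements that use L1 proteins to move, were at 1.54, 1.04 and 1.39 in the first scaling. None of them passed in the second, with Alu at 0.39, B2 at -0.12 and B4 at 0.26. Simple repeats were higher in both scalings (2.41 in the first), and the Y-chromosome family was lower in both (-0.93 and -2.05).

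Of 1119 repeat names 815 were higher at D2.5 (72.8%) and 59 lower (5.27%), with 78.1% called and a median of 1.08. When libraries were scaled by their repeat name totals, 359 were higher (32.1%) and 215 lower (19.2%, 51.3% called, median 0.15), so that 62.5% of the calls were higher instead of 93.2%. Old and short elements were higher almost throughout in the gene scaling. Of 76 tested ancient L1 names 75 were higher (median 1.60), as were all 26 rodent SINE names (1.52), 56 of 59 DNA transposon names (1.29), 88 of 96 MaLR names (0.96) and 27 of 28 other rodent L1 names (0.97). With repeat name totals 65 of these ancient L1 names, 24 SINE names, 25 DNA transposon names, 13 MaLR names and 9 other rodent L1 names were higher, and 1, 0, 0, 8 and 3 were lower. The 6 young mouse L1 names, whose copies include active ones, had a median of 0.36 with none higher and 1 lower (2 and 1 without KO D2.5 replicate 3), and with repeat name totals a median of -0.54 with 5 lower. L1Md_A was at 13282, 9724 and 10339 CPM in KO D2.5 cells, against 9420, 7458 and 9463 CPM in KO E18.5 cells (0.34, SE 0.22, edgeR adjusted p = 0.15). The ages did not overlap, although the difference did not pass, and L1Md_T did not pass either (0.47). L1Md_Gf, the young name that was lower, was at 751, 566 and 649 CPM, against 926, 853 and 1116 CPM (-0.55, SE 0.20), a call lost without KO D2.5 replicate 2 or KO E18.5 replicate 3.

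Names of several endogenous retrovirus groups fell at D2.5. Of 16 names of intracisternal A particles (IAP) 10 were lower and 1 higher (median -0.63), of 12 names of murine leukaemia virus type and VL30 elements 8 were lower and 1 higher (-0.70), of 5 ETn and MusD names 3 were lower (-0.52), and of 9 MMERVK10C and RLTR10 names 4 were lower and 1 higher (-0.29). With repeat name totals the counts of lower names were 15, 12, 5 and 8, and none was higher. Without KO D2.5 replicate 3 the counts of lower names in the gene scaling were 10, 8, 4 and 4, and of higher names 2, 0, 0 and 2. IAPEY3-int, the internal part of an IAP element, was at 381, 463 and 502 CPM in KO D2.5 cells, against 1526, 1336 and 1428 CPM in KO E18.5 cells (-1.67, SE 0.21, edgeR adjusted p = 2.21e-09). RLTR6-int was at 211, 319 and 378 CPM, against 1012, 957 and 1015 CPM (-1.71, SE 0.22). RLTR10-int was at 851, 921 and 988 CPM, against 2065, 1981 and 2201 CPM (-1.17, SE 0.21). No KO D2.5 library reached the KO E18.5 level in these 3 names. IAPEz-int, the most abundant IAP name, did not pass (0.31, SE 0.20). MERVL-int was higher in the gene scaling (0.56), though not without KO E18.5 replicate 2, and at -0.34 with repeat name totals.

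**Figure D4:**
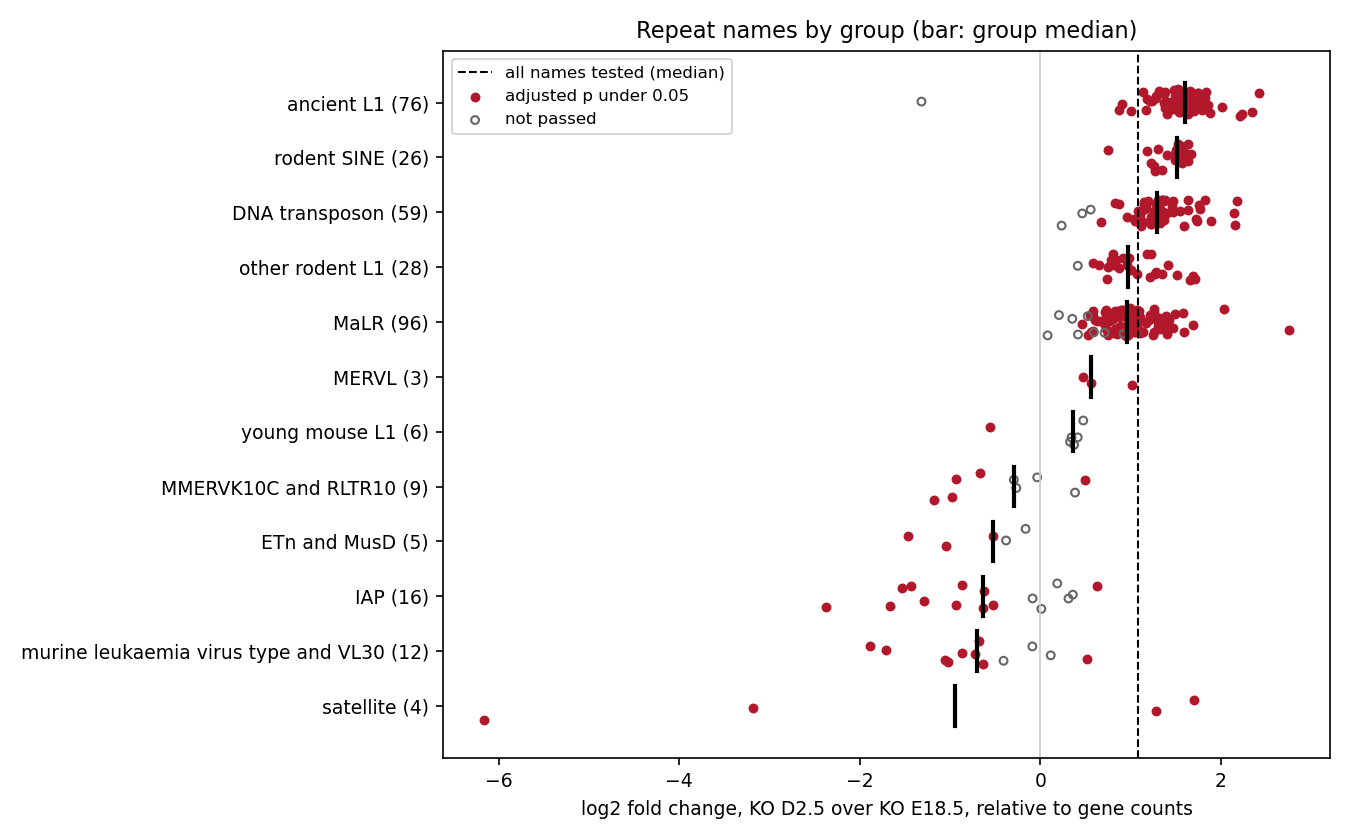
Log2 fold change relative to gene counts (x axis, KO D2.5 over KO E18.5) of the tested names of 12 repeat groups (rows, with the number tested), with 1 point per name, filled where the adjusted p is under 0.05, a bar at the group median and a dashed line at the median of all names tested. The median of IAP names lies at -0.63 and that of ancient L1 names at 1.60.

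The largest single changes among abundant repeat names were in tRNA, ribosomal and satellite sequences. The tRNA sequence tRNA-Leu-TTA(m) was at 2349, 1966 and 1180 CPM in KO D2.5 cells, against 74.0, 84.8 and 85.2 CPM in KO E18.5 cells (4.50, SE 0.25, edgeR adjusted p = 1.19e-21), and tRNA-Gln-CAA_ was higher by 4.68. SSU-rRNA_Hsa, small subunit ribosomal RNA sequence, was at 841, 692 and 608 CPM, against 11536, 9637 and 7056 CPM (-3.72, SE 0.25). LSU-rRNA_Hsa, of the large subunit, was at 79012, 55533 and 54714 CPM, against 287728, 239431 and 157610 CPM (-1.85, SE 0.25). Both names were lower in every KO D2.5 library. HT cells gave -3.27 and -1.47 for the same 2 names. The rRNA family of the family table went the other way, at 43220, 29765 and 31047 CPM, against 15305, 16317 and 16206 CPM (1.13, edgeR adjusted p = 1.43e-07), and did not pass with family totals (-0.086). The satellite MurSAT1 fell by 6.16, and the calls of these repeat names kept their direction with repeat name totals.

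The change between the ages was set against that of heterozygous cells. In HT cells 9555 of 18251 genes tested passed (52.4%). Of the 8839 genes called in KO cells 8648 had the same sign in HT cells, and 6981 were called in the same direction, which is 79.0% of the KO calls and 73.1% of the HT calls, while 12 were called in the opposite direction. The difference between the KO change and the HT change, tested as an interaction over all 12 libraries, passed for 12 of 18251 genes (0.0657%), with 10 higher (0.0548%) and 2 lower (0.011%), and 1759 genes had an unadjusted p under 0.05 (9.64%). DESeq2 called 200 genes, and limma-voom with library weights called 4. On simulated counts the edgeR interaction test found 2 of 96 genes changed 2-fold and 25 of 94 changed 4-fold. Genes that did not pass may thus still differ between the genotypes. When any 1 E18.5 library was left out, KO or HT, 2 genes passed, and 4 passed without KO D2.5 replicate 1 and 7 without KO D2.5 replicate 2.

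Samd9l and Gpr179 passed the interaction in every alternative fit run. Samd9l, an interferon-inducible gene of growth restraint and antiviral defence, was at 151, 116 and 96.7 CPM in KO D2.5 cells, against 11.7, 20.0 and 21.2 CPM in KO E18.5 cells (2.78, SE 0.30, edgeR adjusted p = 0.000115). In HT cells it was at 0.371, 1.62 and 0.907 CPM at D2.5, against 9.28, 8.25 and 7.38 CPM at E18.5. The KO value of Samd9l was 1.46 after the GC correction. KO and HT cells moved in opposite directions, and the difference of the changes was 5.83 (SE 0.55, adjusted p = 0.000293). The HT D2.5 libraries held 2, 10 and 5 counts of Samd9l, so the size of that difference is uncertain. Gpr179, a receptor gene known from retinal bipolar cells, was at 48.0, 102 and 88.5 CPM in KO D2.5 cells, against 132, 112 and 102 CPM in KO E18.5 cells, and did not pass in KO cells (-0.54, SE 0.28, adjusted p = 0.133). With the GC correction the KO value of Gpr179 was 0.65, of the opposite sign, and did not pass either. In HT cells Gpr179 was at 0, 0.486 and 0.181 CPM at D2.5, against 16.2, 20.9 and 21.1 CPM at E18.5. Both genes were higher in every KO library than in any HT library of the same age, and the difference of the changes of Gpr179 was 5.75 (SE 0.63, adjusted p = 0.00119). The HT D2.5 libraries held 0, 3 and 1 counts of Gpr179, which are not told from 0, so that 5.75 is a fitted value and no measured size. Of 23 tested interferon-stimulated genes 2 rose and 7 fell in KO cells (median -0.69), a share lower near the 29.1% of all genes tested. Without KO D2.5 replicate 3, 2 rose and 8 fell, with a median of -1.24. The rises were of Samd9l and Oasl2 (2.47), and Samd9l alone of this list passed the interaction.

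The Samd9l window is shown for the core of the interferon-stimulated response element, searched on both strands. That core was found in 7 of 16 interferon-stimulated genes with a window (43.8%) and in 3.12% of the tested genes with a window. No letters are in capitals because the core has no match in this window, which runs over 250 bases before the start on the minus strand of chr6:3399572-3399821 (RefSeq, GRCm38.p6).
Samd9l: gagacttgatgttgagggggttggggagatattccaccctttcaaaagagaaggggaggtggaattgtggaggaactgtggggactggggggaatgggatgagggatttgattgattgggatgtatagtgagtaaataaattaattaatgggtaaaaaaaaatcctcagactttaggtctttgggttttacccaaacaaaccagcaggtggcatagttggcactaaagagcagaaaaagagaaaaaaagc
The absence of a match says only that these letters are not in this window.

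Prom1, the gene of the membrane protein prominin, passed the interaction in the other direction (-3.52, SE 0.51, adjusted p = 0.025). It was at 3.94, 6.75 and 7.44 CPM in KO D2.5 cells, against 60.3, 46.1 and 53.8 CPM in KO E18.5 cells, while HT cells were at 12.1, 7.45 and 11.4 CPM at D2.5, against 8.66, 7.26 and 7.87 CPM at E18.5. The KO E18.5 libraries stood above all others. Spag16, a gene of the sperm axoneme, was at 104, 87.4 and 124 CPM in KO D2.5 cells, against 12.4, 12.6 and 13.5 CPM in KO E18.5 cells, while HT cells were at 13.4, 7.13 and 13.6 CPM at D2.5, against 9.91, 8.86 and 8.12 CPM at E18.5 (2.70, SE 0.41, adjusted p = 0.025). Here the KO D2.5 libraries stood above all others. Cdh19, a cadherin gene, was at 81.3, 92.9 and 98.3 CPM in KO D2.5 cells, against 7.47, 9.91 and 4.90 CPM in KO E18.5 cells, and at 0.313 to 1.45 CPM in HT cells (4.51, SE 0.75, adjusted p = 0.0397). The HT D2.5 libraries held 2, 2 and 3 counts of Cdh19, and its interaction was not called with the GC correction. The KO values with that correction were 2.02 for Spag16 and 2.11 for Cdh19. Each of the 10 genes other than Samd9l and Gpr179 lost the call with the replicate block and when any 1 E18.5 library was left out.

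**Figure D5:**
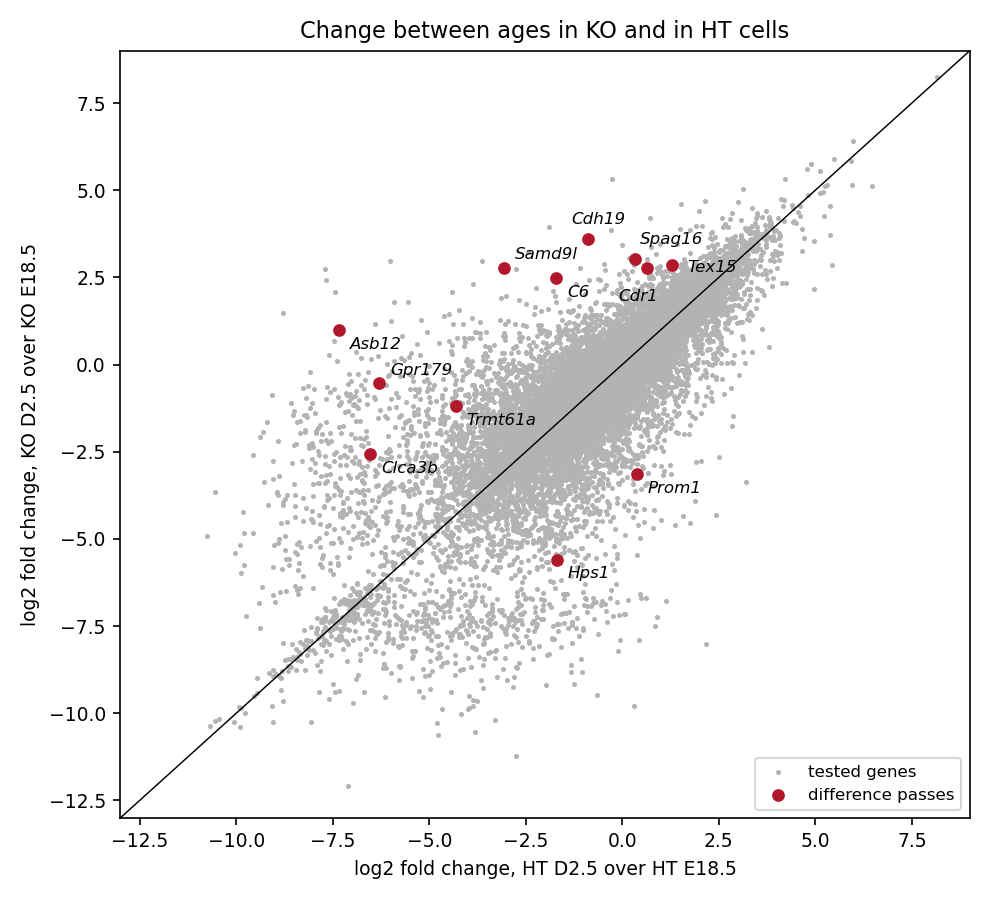
Log2 fold change, D2.5 over E18.5, in KO cells (y axis) against that in HT cells (x axis), with 1 grey point per tested gene, the line of equal change, and in red the 12 genes whose difference passed. Samd9l lies at 2.78 in KO cells and -3.06 in HT cells, and Gpr179 at -0.54 in KO cells and at a fitted -6.29 in HT cells.

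Among repeat names the interaction passed for 24 of 1140 (2.11%), 1 higher (0.0877%) and 23 lower (2.02%). Of these 23 names 21 are of endogenous retroviruses, and in each of those the KO E18.5 libraries lay above the HT E18.5 libraries. IAPEY3-int was at 366, 450 and 406 CPM in HT D2.5 cells, against 465, 422 and 508 CPM in HT E18.5 cells, beside the fall in KO cells given above, and the difference of the changes was -1.48 (edgeR adjusted p = 8.37e-05). RLTR10-int was at 787, 931 and 780 CPM in HT D2.5 cells, against 751, 552 and 790 CPM in HT E18.5 cells, with a difference of -1.43. MuRRS-int was at 489, 550 and 492 CPM in KO D2.5 cells, against 854, 794 and 898 CPM in KO E18.5 cells, and at 498, 496 and 643 CPM in HT D2.5 cells, against 264, 232 and 260 CPM in HT E18.5 cells, with a difference of -1.85. In these 3 names the D2.5 levels of the genotypes overlapped, and the KO E18.5 libraries were the highest. The young L1 name L1Md_A did not pass the interaction (-0.02). It was at 2876, 3815 and 4328 CPM in HT D2.5 cells, against 3031, 2714 and 2822 CPM in HT E18.5 cells, below every KO library of either age.

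The name with a positive interaction was GSAT_MM, the major satellite of mouse pericentromeres. It was at 194, 306 and 252 CPM in KO D2.5 cells, against 2362, 3001 and 1471 CPM in KO E18.5 cells, and at 144, 168 and 85.6 CPM in HT D2.5 cells, against 14860, 15842 and 15446 CPM in HT E18.5 cells. The fall was thus -3.18 (SE 0.24) in KO and -6.86 in HT cells, a difference of 3.67 (edgeR adjusted p = 1.43e-26). The median interaction of all names was -0.33 in the gene scaling. With repeat name totals as library sizes it was 0.07, and 28 names passed (2.46%), 11 higher (0.965%) and 17 lower (1.49%), with GSAT_MM at 4.07, IAPEY3-int at -1.06 and MuRRS-int at -1.41. Of the 52 families tested 1 passed the interaction (1.92%), the family deposited under the name NA (-1.21), and none with family totals.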

How the data were processed

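RNA of flow-sorted male germ cells was amplified and sequenced on an Illumina HiSeq instrument, per the labels' protocols. The authors deposited, for each age, 1 table of whole-number read counts per gene and repeat name (24495 gene rows, 1217 name rows) and 1 table of counts per repeat family (53 rows). The build mm9 and the tools STAR, featureCounts, Bowtie and edgeR are listed in the submitters' processing notes without role or version, and whether counting used strand is not given in the sources used here. Reads of overlapping or antisense genes therefore cannot be told apart.

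The tables of both ages were joined by row name, and samples were grouped by their title labels. Genes were kept with edgeR's filter (minimum count 10, minimum total 15) and repeats with at least 10 counts in 3 libraries. TMM factors and the quasi-likelihood test of edgeR 4.0.16 (limma 3.58.1, R 4.3.3) were fitted on the 6 KO libraries, and the difference between genotypes on the 12 KO and HT libraries. Repeats used the library sizes and factors of the genes. A result passed at a Benjamini-Hochberg adjusted p under 0.05. CPM are counts divided by gene total and TMM factor, and SE is the log2 fold change divided by the square root of F. The biological coefficient of variation of the KO fit was 40.2%, and 3 libraries a group limit the precision. The smallest level distinguished from 0 was 3 counts per library, for counting error only. The p-values measure the spread between these libraries. GC content came from GENCODE transcripts of build GRCm38, matched by symbol for 97.1% of gene rows, and a loess fit of each library on it (span 0.3) gave offsets for the GC correction. That correction and scaling by gene totals were chosen after seeing the data.

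The members and gene lists were chosen with earlier results of these data known. Named genes are Tex15, the 15 largest changes per direction that passed without overlap at an average log2 CPM of at least 3, without predicted gene models, and up to 4 members per list and direction, with others named where a list's count rests on them. One gene that this rule names is not reported here. Repeat names followed a like rule at a log2 CPM of at least 5. Alternatives were RLE factors, other filters, DESeq2 1.42.0, limma-voom with and without library weights, repeat totals as library sizes, a replicate block, 1 fit of 12 libraries and leaving out each library. Scripts were tested on simulated counts. There the test between the KO ages found 14 of 94 genes changed 2-fold and 47 of 92 changed 4-fold. Those counts gave 65 calls among 16343 genes, against 8839 of 17115 in the data. The shares found therefore need not hold for the KO comparison, in which far more genes passed. Figures were drawn with matplotlib 3.10.9 in Python 3.11.15.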

Additional observations from a re-analysis of the deposited data

Results flagged for a closer look

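The change between the ages differed between KO and HT cells, by edgeR's interaction test on the log2 scale (KO change minus HT change), for 12 genes, 24 repeat names and 1 repeat family. The values of the genes were 5.83 for Samd9l, 5.75 for Gpr179, 2.70 for Spag16, -3.52 for Prom1, 1.54 for Tex15, 2.12 for Cdr1, -3.92 for Hps1, 4.18 for C6, 4.51 for Cdh19, 3.11 for Trmt61a, 3.96 for Clca3b and 8.32 for Asb12. The values of Asb12, Gpr179, Clca3b and Cdh19 are fitted ones against HT D2.5 libraries of 3 counts or fewer each and give no bound. Low counts also limit Samd9l (2, 10 and 5 in HT D2.5 libraries) and C6 (2, 3 and 10 in HT D2.5 libraries). The KO D2.5 libraries held 3, 8 and 1 counts of Hps1. The sizes of these 3 differences are therefore uncertain. Hps1 was at 0.563, 1.54 and 0.196 CPM in KO D2.5 cells, against 35.1, 33.7 and 44.9 CPM in KO E18.5 cells, and at 10.9, 11.5 and 9.97 CPM in HT D2.5 cells, against 33.7, 30.9 and 39.4 CPM in HT E18.5 cells. The KO change of Hps1 was -5.60, or -4.31 with the GC correction. C6, a complement gene, was at 40.7, 69.2 and 63.8 CPM in KO D2.5 cells, against 10.7, 9.91 and 10.5 CPM in KO E18.5 cells, and at 0.371 to 1.81 CPM in HT D2.5 cells, against 2.37 to 3.56 CPM in HT E18.5 cells.

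Among repeat names GSAT_MM was at 3.67. The names of endogenous retroviruses with a lower value were MuRRS-int (-1.85), IAPLTR4_I (-1.85), IAPEY3-int (-1.48), RLTR6_Mm (-1.47), RLTR10-int (-1.43), RLTR6-int (-1.41), MMETn-int (-1.40), MURVY-int (-1.37), ETnERV-int (-1.33), MuRRS4-int (-1.28) and RLTR45 (-1.25). Smaller values were those of RLTR10C (-1.21), RLTR10 (-1.20), LTRIS_Mm (-1.20), RLTR4_MM-int (-1.16), IAPEY2_LTR (-1.08), IAPEY3_LTR (-1.07), MMVL30-int (-1.03), LTRIS_Mus (-1.01), MMERVK10C-int (-0.99) and LTRIS2 (-0.96). Zaphod2 was at -1.73 and MLT1K-int at -4.05. MLT1K-int did not pass the count filter among the KO libraries, so the size of its value is uncertain. Zaphod2 was at 8.16, 21.4 and 49.0 CPM in the HT D2.5 libraries. Its call was lost with repeat name totals, limma-voom or the replicate block, and when any 1 E18.5 library was left out. The repeat family named NA was at -1.21.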

How the results depend on the processing

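Leaving out 1 library gave 6509 to 10856 genes called between the KO ages, 34 to 46 repeat families and 756 to 946 repeat names, and for the difference between genotypes 2 to 18 genes, 1 to 2 families and 14 to 61 names. The replicate numbers did not pair the KO libraries (r of -0.03, 0.002 and 0.03 between same-numbered libraries), and with a replicate block 7864 genes, 40 families and 846 names were called between the KO ages, and 2 genes, 1 family and 21 names for the difference between genotypes. For that difference DESeq2 called 200 genes and limma-voom with library weights 4. With repeat totals as library sizes 10 families and 574 names were called between the KO ages, and 0 families for the difference between genotypes. With the GC correction Ddx4 was at -0.071, Trim28 at 1.02, Trmt61a at 0.39 and Gpr179 at 0.65, opposite to the uncorrected values. With repeat totals the sign turned for 19 called families in all, 1 of which was then called, and among the families and names followed for ERVK (-0.37), ERVL (-0.39), B2 (-0.12), MaLR (-0.49), L1Md_F2 (-0.51), L1Md_A (-0.53), L1Md_F (-0.60), L1Md_F3 (-0.56), IAPEz-int (-0.59), IAP-d-int (-0.56), IAPLTR1_Mm (-0.28), MERVL-int (-0.34) and MT2_Mm (-0.44). Why these values moved was not tested. Of 173 genes followed in the KO comparison 135 kept direction and call in every alternative, as did 2 of 12 genes and 13 of 23 names of the difference between genotypes. The D2.5 libraries held fewer gene counts, and levels of genes of few counts there cannot be told from 0. HT D2.5 replicate 2 had 7391401 gene counts and 17268 genes with counts. HT E18.5 replicate 1 had 7877665 gene counts and 21808 genes with counts. The part of depth in the number of genes with counts was not tested.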
